A study of Mus musculus with 6 samples.

Results

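The genes described here are 10 members of the insulin-like growth factor (IGF) axis in mouse bone marrow stromal cells: the ligand Igf1, the receptor Igf1r, the binding protein genes Igfbp2, Igfbp3, Igfbp4, Igfbp5, Igfbp6 and Igfbp7, the binding protein protease Pappa and the receptor substrate Irs1. They were taken by gene symbol from a table of 53735 features, all 10 were present, and all 10 were among the 13092 genes with enough reads to test. The series asks how the uptake of dying cells affects mesenchymal and osteoblast lineage cells. RNA was sequenced in 3 control and 3 fed libraries, all of wild-type (wt) mouse cells collected at 24 h. The cells were CD51+ marrow cells without lineage markers, CD45 or CD31, sorted from crushed leg and pelvic bones, grown at 2% oxygen and taken at passage 2 or 3. Fed wells received 5000000 dye-labelled apoptotic thymocytes and were kept at 5% oxygen, and cells that carried the dye were then sorted. Control wells received no thymocytes, and both the medium they were given and their oxygen during the last 24 h are not stated. Strain, sex, age and the number of animals are not stated either. Nothing says that replicates were separate cultures or animals, so the p-values speak only of the spread among these 6 libraries, which may be technical.

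IGF1 is a secreted growth factor that acts through the tyrosine kinase receptor IGF1R, which passes the signal through the docking protein IRS1 to the PI3K-AKT and RAS-ERK pathways. Outside the cell, most IGF is held by a family of binding proteins that share a cysteine-rich fold, can keep the ligand from its receptor or carry it to the cell, and are cut by proteases such as PAPP-A, which cleaves IGFBP4 and IGFBP5. Osteoblast lineage cells make IGF1 and several of the binding proteins, and IGFBP5 is a binding protein stored in bone matrix.

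In fed cells Igfbp3 rose 1.79-fold, while Igfbp5, Igf1, Igfbp4 and Igfbp7 fell to 0.619, 0.734, 0.782 and 0.856 of control. The other 5 members, Igf1r, Irs1, Igfbp2, Igfbp6 and Pappa, did not pass the test. Calls are those of edgeR's quasi-likelihood test at a Benjamini-Hochberg adjusted p under 0.05 over all genes tested. With 5 of 10 members called, the share was near that of all genes, of which 39.5% were called. The 1 member called higher stood beside a background of 20.5% and the 4 called lower beside 19.0%. The groups did not overlap for 5 of 10 members and for 49.1% of all genes. The median log2 fold change of the members was -0.21, and that of all genes tested was -0.0066. The number called lower was 7 without control replicate 3, when Pappa, Igfbp2 and Igfbp6 also passed.

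The promoter windows of 3 binding protein genes are printed because these are the member with the largest rise, the member with the largest fall and the most abundant member. Each window runs from 250 bases before to 50 bases after the start of the gene, 5′ to 3′ on the gene's own strand, from RefSeq on GRCm38.p6. Capitals mark GCGTG, a core of the element bound by hypoxia-inducible factors.
Igfbp3 (chr11:7213874-7214173, minus strand): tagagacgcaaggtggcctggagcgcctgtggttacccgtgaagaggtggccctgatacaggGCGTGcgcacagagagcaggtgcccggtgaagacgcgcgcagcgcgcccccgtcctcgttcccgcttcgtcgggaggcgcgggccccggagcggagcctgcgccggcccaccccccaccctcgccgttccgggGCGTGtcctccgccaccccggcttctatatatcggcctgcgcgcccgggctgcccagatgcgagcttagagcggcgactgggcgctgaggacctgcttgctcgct
Igfbp5 (chr1:72874816-72875115, minus strand): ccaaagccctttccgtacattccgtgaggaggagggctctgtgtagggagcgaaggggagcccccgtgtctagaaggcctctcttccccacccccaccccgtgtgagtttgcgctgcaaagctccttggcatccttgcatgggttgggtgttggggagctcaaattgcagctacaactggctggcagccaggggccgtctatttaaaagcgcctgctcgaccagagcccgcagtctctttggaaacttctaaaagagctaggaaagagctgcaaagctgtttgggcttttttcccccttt
Igfbp4 (chr11:99040994-99041293, plus strand): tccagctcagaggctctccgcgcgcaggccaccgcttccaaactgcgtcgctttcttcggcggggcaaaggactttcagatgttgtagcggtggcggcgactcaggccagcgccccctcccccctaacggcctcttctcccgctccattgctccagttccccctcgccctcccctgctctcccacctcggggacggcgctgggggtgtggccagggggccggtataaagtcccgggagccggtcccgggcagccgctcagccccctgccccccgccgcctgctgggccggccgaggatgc
The Igfbp3 window held GCGTG at 188 and 55 bases before the start, and the Igfbp4 and Igfbp5 windows held no match to any motif searched.

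The motifs searched on both strands were ACGTG and GCGTG, both cores of the hypoxia response element, and TGTTTAC, which FOXO factors bind. A CACGTG palindrome counts as 2 overlapping matches of ACGTG, as in Igfbp2 and Irs1. Of the 9 members with a window in the reference, 6 held GCGTG (Igf1, Igf1r, Igfbp2, Igfbp3, Igfbp7 and Irs1), and 3 of these (Igfbp2, Igfbp7 and Irs1) also held ACGTG. Of all 32851 windows, 32.4% held GCGTG and 19.6% held ACGTG. The FOXO motif was in the window of no member and in 3.65% of all windows. Among the called members, the letters were present both in Igfbp3, which rose, and in Igf1 and Igfbp7, which fell. The G and C content of the windows was 71.7% in Igfbp3, 71.3% in Igfbp4 and 56.3% in Igfbp5.

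Levels differed among the members by more than 2 orders of magnitude, and most of the binding protein RNA was Igfbp4. To compare genes, counts per 1e6 counts (CPM), on library totals scaled by TMM, were divided by the kilobases of merged exons. On this scale the control level of Igfbp4 was 1326 ± 2.04 CPM per kilobase (SD, n = 3), followed by Igfbp7 at 478.5 ± 40.0 and Igfbp2 at 234.8 ± 18.8. These 3 stood well apart from the rest, the next being Igfbp6 at 18.6 ± 2.24 CPM per kilobase. Below it came Igf1r at 8.54 ± 0.604, Igfbp5 at 8.02 ± 0.327 and Pappa at 7.66 ± 0.584, whose control ranges overlapped from each to the next. The lowest were Irs1 at 3.14 ± 0.202, Igf1 at 2.91 ± 0.391 and Igfbp3 at 2.31 ± 0.369, again with ranges that overlapped from each to the next.

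The order changed at the lower end in fed cells. Igfbp3 reached 4.16 ± 0.285 CPM per kilobase, above Irs1 at 2.91 ± 0.200 and Igf1 at 2.14 ± 0.202. Igfbp5 came to 4.97 ± 0.467, below Pappa at 6.27 ± 0.828 CPM per kilobase. The lowest fed library of Igfbp5, at 4.43, lay just above the highest of Igfbp3, at 4.39. In the fed libraries no gene's range overlapped that of its neighbour in the order.

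**Figure D1:**
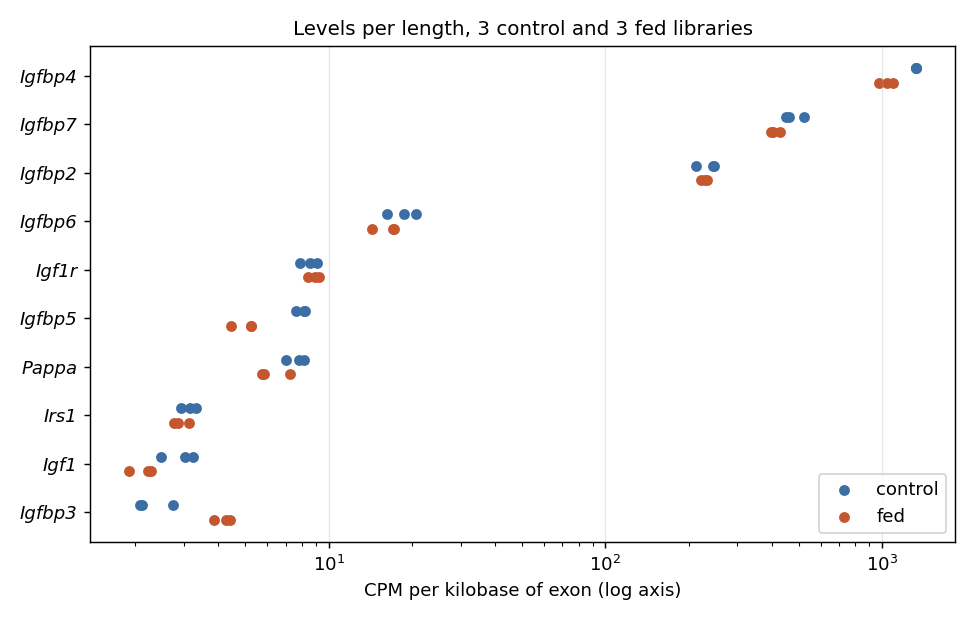
Level of each of the 10 genes as CPM per kilobase of exon on a log axis, with 1 point per library, control in blue and fed in orange. Igfbp4, Igfbp7 and Igfbp2 lie above 200 and the other 7 genes below 21 in every library, and the fed points of Igfbp3 lie to the right of its control points.

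The ligand Igf1 (chromosome 10, 87858265 to 87937042) fell. It had 32.0, 30.0 and 24.5 CPM in control replicates 1 to 3, and 18.9, 22.1 and 22.6 CPM in the fed libraries. The lowest control library, replicate 3, was above the highest fed library, so the groups did not overlap, by a narrow margin. The log2 fold change was -0.45 ± 0.098 (SE) with an adjusted p of 0.00388 by edgeR. The call held in all 17 alternatives, between -0.54 and -0.36 on the log2 scale. In bulk RNA fewer cells that make a transcript and less of it per cell cannot be told apart, which applies to every gene described here.

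The receptor Igf1r (chromosome 7, 67952827 to 68233668) did not pass. Its control libraries had 153, 144 and 133 CPM and its fed libraries 155, 149 and 142 CPM. The groups lay almost on top of each other, the log2 fold change being 0.05 ± 0.049 (SE, adjusted p = 0.434 by edgeR). Irs1 (chromosome 1, 82233101 to 82291416), the docking protein downstream of the receptor, had 30.4, 28.9 and 26.8 CPM in control and 28.7, 26.0 and 25.2 CPM in fed libraries. These values overlapped too, the log2 fold change being -0.11 ± 0.065 (SE, adjusted p = 0.187 by edgeR). An annotated gene on the other strand shares 2822 exon bases with Irs1, and it had only 4 counts over all libraries.

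Igfbp3 (chromosome 11, 7206086 to 7213923), whose product is the main carrier of IGF in blood, was the only member called higher. It had 8.57, 6.61 and 6.53 CPM in control replicates 1 to 3 and 13.3, 13.7 and 12.0 CPM in the fed libraries. Every fed library was above every control library, and control replicate 1 was the highest of its group. The log2 fold change of 0.84 ± 0.10 (SE, adjusted p = 2.03e-06 by edgeR) was exceeded in size by 2.26% of all genes tested. The reads behind it were few, 124 to 185 per control library and 268 to 299 per fed library. Leaving out each library in turn gave log2 fold changes between 0.78 and 0.98, and the call held in each case.

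Igfbp5 (chromosome 1, 72857932 to 72874884) had the largest fall of the members. Its control libraries had 49.4, 49.2 and 45.9 CPM and its fed libraries 31.5, 31.5 and 26.6 CPM. The lowest control value was well above the highest fed value. The log2 fold change was -0.69 ± 0.062 (SE, adjusted p = 3.83e-08 by edgeR), with 4.46% of all genes changing by more. The opposite changes of Igfbp5 and Igfbp3 took the ratio of their levels per kilobase from 3.51 ± 0.454 in control to 1.19 ± 0.0409 in fed libraries (SD, n = 3).

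Igfbp4 (chromosome 11, 99041244 to 99054392), whose product restrains IGF action and is a main substrate of PAPP-A, fell from a very high level. In control cells it ranked 10 among all tested genes by CPM and took 0.579% of all counts, against 0.462% in fed cells. The control libraries had 5860, 5844 and 5859 CPM, and the fed libraries 4581, 4315 and 4837 CPM. The control libraries were nearly identical, with a spread of 0.154% of their mean, smaller than the 0.288% that counting error alone gives at this depth. The fed libraries differed more among themselves but were all lower. The log2 fold change was -0.35 ± 0.043 (SE, adjusted p = 1.8e-06 by edgeR). In CPM the mean fell by 1276, against a gain of 5.78 CPM for Igfbp3.

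Igfbp7 (chromosome 5, 77349240 to 77408041), a secreted relative of the family that binds IGFs weakly, fell less. The control libraries had 634, 559 and 543 CPM and the fed libraries 517, 479 and 490 CPM. Control replicate 1 stood above the other controls, and the gap between the lowest control and the highest fed library was small. The log2 fold change was -0.22 ± 0.052 (SE, adjusted p = 0.00332 by edgeR), between -0.27 and -0.16 when each library was left out in turn. Its exons share 85 bases with Polr2b on the other strand, whose log2 fold change was 0.03 (adjusted p = 0.603 by edgeR).

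Igfbp2 and Igfbp6 did not pass. Igfbp2 (chromosome 1, 72824503 to 72852474) had 453, 455 and 394 CPM in control and 409, 430 and 425 CPM in fed libraries. Control replicates 1 and 2 were above every fed library and control replicate 3 below every one, and the log2 fold change was -0.04 ± 0.049 (SE, adjusted p = 0.523 by edgeR). Without that library it was -0.11, with an adjusted p of 0.0392 by edgeR. Igfbp6 (chromosome 15, 102144362 to 102149511), whose product prefers IGF2 as its ligand, had 20.8, 23.1 and 18.1 CPM in control and 16.0, 19.2 and 19.1 CPM in fed libraries. The groups overlapped through control replicate 3, and the log2 fold change was -0.19 ± 0.090 (SE, adjusted p = 0.0997 by edgeR). It was -0.28 without control replicate 3, with an adjusted p of 0.0107 by edgeR.

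Igfbp2 and Igfbp5 are neighbours on chromosome 1 that face each other tail to tail, 5.46 kb apart. Although adjacent, they took different values, with Igfbp5 lower and Igfbp2 without a call. The ratio of Igfbp2 to Igfbp5 in CPM per kilobase was 29.3 ± 1.19 in control and 46.2 ± 5.06 in fed libraries (SD, n = 3). Igfbp3 lies 3.54 kb from Igfbp1 on chromosome 11 in the same arrangement. Igfbp1, the binding protein gene of the liver, had 0 counts in the control libraries and 2 in the fed libraries, at or under the floor of 3 counts, so no comparison was possible.

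Pappa (chromosome 4, 65124174 to 65357509), the protease of IGFBP4 and IGFBP5, missed the threshold. The control libraries had 90.1, 85.9 and 77.4 CPM and the fed libraries 79.7, 63.4 and 64.4 CPM. Fed replicate 1 lay above control replicate 3, and the other fed libraries were below all controls. The log2 fold change was -0.29 ± 0.11 (SE, adjusted p = 0.0797 by edgeR), and its call depended on the tool and the libraries. DESeq2 (adjusted p = 0.00228) and limma-voom (0.00497) called it lower, as did edgeR without robust estimation (0.00586). It was also called lower by edgeR without fed replicate 1 (-0.40, adjusted p = 1.07e-05) or control replicate 3 (-0.35, adjusted p = 0.0365). The ratio of Igfbp4 to Pappa per kilobase was 173.7 ± 13.7 in control and 167 ± 22.2 in fed libraries, a difference within the spread.

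**Figure D2:**
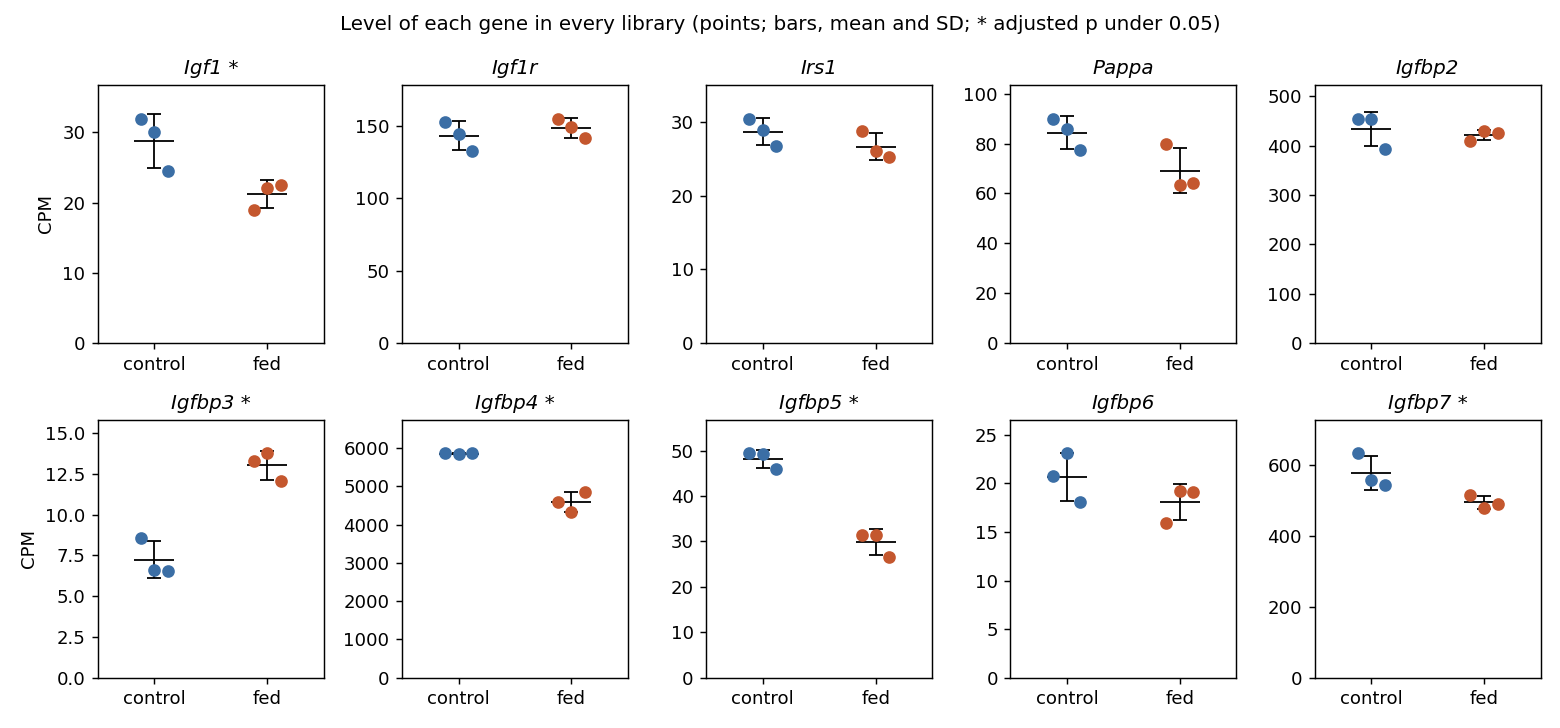
CPM of each of the 10 genes in the 3 control and 3 fed libraries, with points for libraries, bars for mean and SD, every axis starting at 0 and an asterisk for an adjusted p under 0.05 by edgeR. The fed points lie above the control points for Igfbp3 and below them for Igf1, Igfbp4, Igfbp5 and Igfbp7, and the groups overlap for the other 5 genes.

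**Figure D3:**
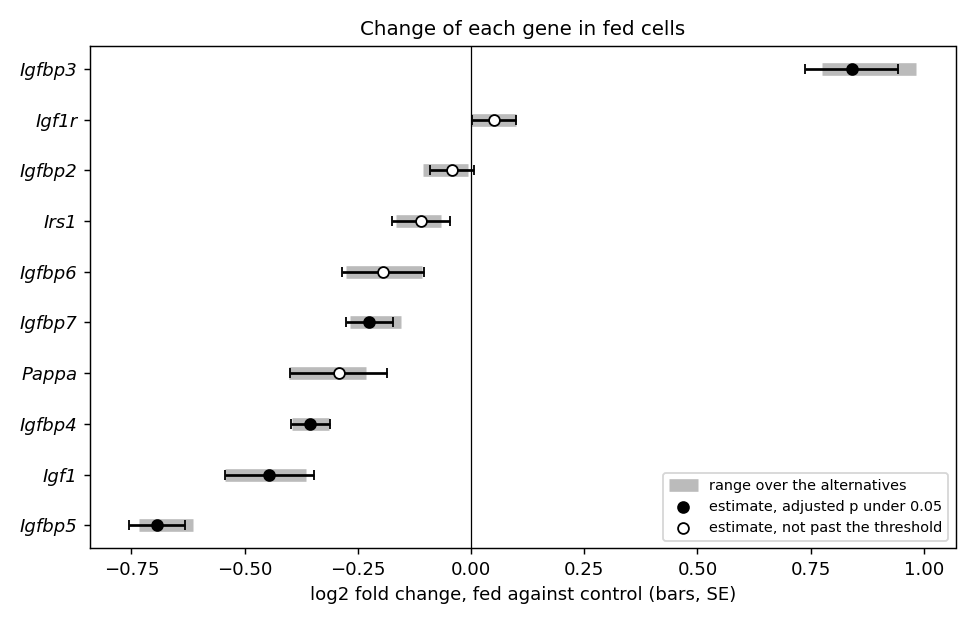
Log2 fold change of each gene in fed against control cells with its SE, filled where the adjusted p was under 0.05 by edgeR, over a grey bar for the range of 17 alternative analyses. Igfbp3 is at 0.84, Igfbp5 at -0.69, and no grey bar crosses 0.

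The summed level of the 6 binding protein genes was lower in fed cells. Summed over the 6, the level was 2126, 2063 and 2015 CPM per kilobase in control and 1710, 1633 and 1756 in fed libraries, a change of the mean by -17.8%. All fed sums were below all control sums. Without Igfbp4 the sum of the other 5 was 742 ± 55.5 in control and 663 ± 8.62 CPM per kilobase in fed libraries (SD, n = 3). Igfbp4 made up 64.1 ± 1.71% of the binding protein sum in control and 61.0 ± 1.30% in fed libraries, and Igfbp2 11.3 ± 0.697% and 13.4 ± 0.709%. Igfbp3 made up 0.112 ± 0.0149% and 0.245 ± 0.0252%, so its rise hardly entered the total. The ratio of the sum to Igf1 per kilobase was 718 ± 84.3 in control and 799.7 ± 86.4 in fed libraries, a difference of about 1 SD. These sums and ratios are descriptions, with no test.

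By a fixed rule of likeness, the 3 genes nearest to Igfbp3 over the 6 libraries were Hes1, Socs2 and Fgf2. The candidates were 8630 tested genes that averaged 10 CPM or more, without repeated or date-like symbols and without Gm, Rik, -ps or accession-type names. Likeness was the root mean square difference of log2 CPM, each gene centred on its own mean. It was 0.095 for Hes1, a transcriptional repressor that rose from 9.94 ± 0.560 to 17.3 ± 1.14 CPM. It was 0.097 for Socs2, an inhibitor of growth hormone signalling, and 0.12 for Fgf2, a fibroblast growth factor. Nearest to Igfbp5 were Armcx1 (0.044), Pla2r1 (0.051), a receptor for secreted phospholipase, and Rnf150 (0.060). Armcx1 fell from 20.5 ± 0.303 to 12.8 ± 0.728 CPM, nearly in step with Igfbp5. The direction of these genes follows from how they were chosen.

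The rest of the pathway was described with 92 genes in 8 lists, of which 85 were tested, 15 called higher and 32 lower. Their called share was 55.3%, beside 39.5% for all genes, and their median log2 fold change was -0.07. The lists were chosen with earlier results of these data known, so the shares called in them are descriptions only. Most changes were small, with 8 of the 47 called genes at or beyond 0.5 on the log2 scale in size.

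**Figure D4:**
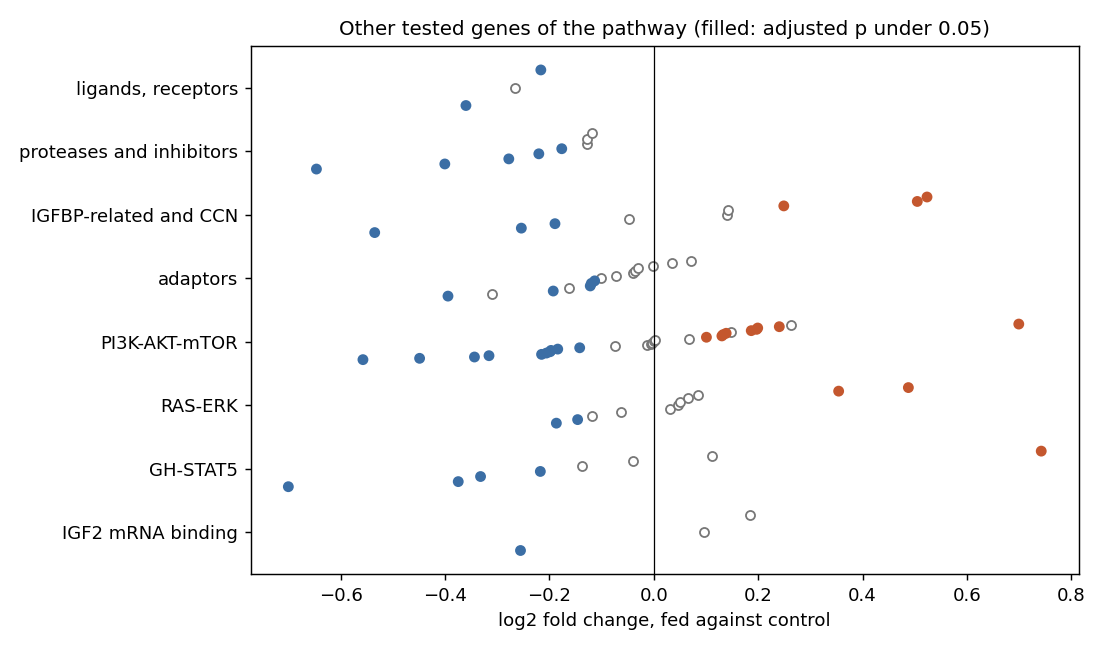
Log2 fold change in fed against control cells of the 85 other tested pathway genes by list, filled where the adjusted p was under 0.05 by edgeR and ordered by value from bottom to top within each list. Called genes of the first 2 lists, ligands with receptors and proteases with their inhibitors, all lie below 0, while the PI3K-AKT-mTOR list holds 9 higher and 10 lower.

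Other ligands and receptors were lower or did not pass. Insr, the insulin receptor, had 44.0, 41.6 and 37.1 CPM in control and 34.2, 30.4 and 31.2 CPM in fed libraries. The groups did not overlap, and the log2 fold change was -0.36 ± 0.064 (SE, adjusted p = 0.000173 by edgeR). The ratio of Igf1r to Insr per kilobase was 2.87 ± 0.0515 in control and 3.82 ± 0.181 in fed libraries. Igf2r, which takes up IGF2 for breakdown, had 155 ± 11.2 and 133 ± 9.75 CPM and was called lower, a call lost without control replicate 1 (adjusted p = 0.0650 by edgeR) or fed replicate 3 (0.0635). The ligand Igf2 was low, at 3.73 ± 0.534 and 3.11 ± 0.320 CPM (adjusted p = 0.185 by edgeR). The acid-labile subunit gene Igfals, with Insrr, Igfbp1 and Igfbpl1, had too few reads to test.

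Of 8 tested genes of binding protein cleavage, 5 fell and none rose (62.5% called), where 39.5% of all genes were called and 19.0% of all genes were called lower. The median change was -0.20 on the log2 scale. Stc1 and Stc2 encode stanniocalcins, which inhibit PAPP-A. Stc2 had 7.60, 7.32 and 6.64 CPM in control and 4.31, 5.38 and 4.10 CPM in fed libraries, its log2 fold change being -0.65 ± 0.12 (SE, adjusted p = 0.000302 by edgeR). Stc1 fell by 0.28 on the log2 scale. Both inhibitors were lower. Pappa itself missed the threshold at a log2 fold change of -0.29, close to that of Stc1. It was called lower by DESeq2, limma-voom and edgeR without robust estimation. The metalloprotease gene Adam9 fell from 516.5 ± 1.51 to 391 ± 7.13 CPM, and Adam12 and Mmp2 fell by 0.22 and 0.18. Pappa2, a second pappalysin that cuts IGFBP5, had 37.0 ± 3.84 and 34.0 ± 0.570 CPM (adjusted p = 0.124 by edgeR). Htra1 and C1s1, serine proteases, did not pass either, at log2 fold changes of -0.12 and -0.13.

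Genes whose products share a module with the binding proteins moved in both directions, 3 of 9 being higher and 3 lower. Their called share was 66.7%, beside 39.5% of all genes, with 20.5% called higher and 19.0% lower. Ctgf and Cyr61, secreted CCN matrix proteins, rose by 0.52 and 0.50 on the log2 scale, Ctgf from 1691 ± 85.1 to 2431 ± 73.0 CPM. The CCN genes Wisp1 and Wisp2 were called lower, by 0.25 and 0.19, and the CCN gene Nov did not pass (0.14, adjusted p = 0.132 by edgeR). Crim1, a transmembrane protein with an IGFBP-like motif, rose by 0.25. Htra3, a secreted serine protease, fell from 94.6 ± 0.905 to 65.3 ± 2.69 CPM.

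Inside the cell, no tested adaptor rose and 5 of 15 fell. This called share of 33.3% stood beside 39.5% of all genes, with 20.5% called higher and 19.0% lower. The list was not tested as a set, so no result about the adaptors is drawn from it. Ptpn1, a phosphatase that acts on the insulin and IGF receptors, fell from 111 ± 2.97 to 84.3 ± 1.58 CPM, and Grb10, an adaptor that restrains the receptors, by 0.19 on the log2 scale. Shc1 and Grb2, which link receptors to RAS, fell by 0.11 and 0.12, with less certain calls. That of Shc1 was lost with library totals only (adjusted p = 0.0819 by edgeR) and without control replicate 2 (0.0699) or fed replicate 2 (0.0745). That of Grb2 was lost with library totals only (0.120), with no filter (0.0684), by DESeq2 (0.149) and without any 1 library except control replicate 3 (0.0584 to 0.185 by edgeR). In place of 5 adaptors, 2 were called lower on unscaled totals. Leaving out control replicate 2 also gave 2, and leaving out control replicate 1 gave 3, as did fed replicate 2, fed replicate 3, DESeq2 and no filter. When control replicate 3 was left out, 1 adaptor was called higher. Irs2, the other main docking protein, had 14.1 ± 1.57 CPM in control and 14.1 ± 1.52 in fed libraries, so neither Irs1 nor Irs2 passed. Of 28 genes from PI3K to mTOR, 9 rose, 10 fell and 9 did not pass (67.9% called). The count of those higher was 6 by DESeq2 and 5 at an adjusted p under 0.01 by edgeR. The regulatory subunit genes Pik3r1 and Pik3r3 fell by 0.56 and 0.45 (log2). Catalytic subunit genes differed, with Pik3cb rising by 0.70, from 8.15 ± 1.43 to 13.2 ± 0.738 CPM. The more abundant Pik3ca fell by 0.21, from 87.0 ± 1.44 to 75.5 ± 2.75 CPM, and Pik3cd did not pass (0.26, adjusted p = 0.342 by edgeR). Foxo3, a transcription factor that AKT restrains, fell by 0.32. Its relatives in the list moved apart, Foxo4 falling by 0.34 and Foxo1 rising by 0.24.

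Of 11 genes from RAS to ERK, 2 rose and 2 fell, a called share of 36.4% that was close to the 39.5% of all genes. Hras, a small GTPase, rose by 0.49 (log2), and the kinase genes Rps6ka3 and Map2k1 fell by 0.19 and 0.15. Of 8 genes of growth hormone signalling, which controls Igf1 in liver, 1 rose and 4 fell (62.5% called), and 2 rose on unscaled totals. The count lower was 3 on unscaled totals, with no filter, by DESeq2 and by limma-voom. It was also 3 without robust estimation, at an adjusted p under 0.01 by edgeR, and without any 1 library except fed replicate 3. Socs2 rose from 23.3 ± 1.91 to 39.1 ± 0.704 CPM and Socs3 fell from 176 ± 7.71 to 108 ± 1.29 CPM, so these feedback inhibitors moved in opposite directions. Stat5a and Jak2 fell by 0.33 and 0.22, and the receptor gene Ghr did not pass (0.11, adjusted p = 0.101 by edgeR). Of the 3 IGF2 mRNA-binding protein genes, Igf2bp2 fell by 0.26 and the others did not pass.

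Depth was similar in both groups, from 19069074 to 22410047 counts per library. Control replicate 3 was set apart from the other controls on the second principal component (14.3% of the variance) and was the lowest control library for 9 of the 10 members, Igfbp4 being the exception. All 10 stromal markers were detected, Itgav (CD51), Pdgfra and Pdgfrb among them. Of these, 6 were called lower and 1 higher, where 39.5% of all genes were called. Their sum, mostly Col1a1 and Col1a2, was 36112 to 37570 CPM in control and 31663 to 33600 CPM in fed libraries. Of 14 thymocyte markers 11 were detected, at summed levels of 3.02 to 3.53 CPM in control and 3.26 to 4.58 CPM in fed libraries, with Cd3g, Rag2 and Ptcra at 0. Most of the sum was Tcf7, at 2.27 to 2.69 and 2.35 to 3.04 CPM. Rag1 had 0, 2 and 1 counts in control and 7, 6 and 12 in fed libraries. Dntt had 0 in each control library and 5, 1 and 3 in fed libraries. Cd8a and Cd8b1 also had counts only in fed libraries, as did Cd4 and Cd3e, with 3 and 2 counts in fed replicate 1 alone. Cd3d had a single count, in control replicate 2. Lck had 8, 11 and 15 counts in control and 7, 4 and 12 in fed libraries. Only 2 of the 14 were tested, and 0 were called. Of 10 macrophage and blood cell markers 9 were detected, with Fcgr1 at 0. Their sum was 14.1 to 15.3 CPM in control and 19.9 to 21.2 CPM in fed libraries. Of the 4 tested, Lyz2 and Cd14 were called higher and 0 lower. Csf1r had 5.56, 5.67 and 6.11 CPM in control and 4.51, 5.75 and 5.95 CPM in fed libraries, and the groups overlapped for Cd68 too. Adgre1, Tyrobp and Itgam had counts only in fed libraries, at most 5 in a library. Of 7 endothelial markers 3 were detected, at 2.83 to 3.49 and 2.67 to 3.30 CPM, with Cdh5, Emcn, Tie1 and Cldn5 at 0. Markers of osteoblasts (7 of 7 detected) summed to 844 to 984 CPM in control and 717 to 766.5 CPM in fed libraries. Most of this sum was Alpl, called lower, while Sp7 was called higher. Those of chondrocytes (4 of 5, with Matn1 at 0) summed to 1477 to 1569 and 1907 to 2040 CPM, mostly Col2a1, and those of adipocytes (4 of 5, with Lep at 0) to 121 to 123 and 145 to 149 CPM, mostly Fabp4. Among the chondrocyte markers Col2a1 was called higher, and Sox9 and Col10a1 lower. The part of these markers in the changes of the IGF genes was not tested.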

How the data were processed

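The deposited table holds raw counts per gene symbol, as the authors made them. Per the submitters' processing notes, they used Trimmomatic 0.36, STAR 2.6.0c, featureCounts of Subread 1.6.1 and MultiQC 1.5 with GRCm38. Per the labels, libraries were stranded and mRNA-selected from 200 ng of RNA. The sources used here do not give the annotation release, strand setting or treatment of multi-mapped reads. Counts of overlapping genes are therefore less certain. Exon lengths and positions came from GENCODE M21 on GRCm38.

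Counts were analysed with edgeR 4.0.16 in R 4.3.3: filterByExpr, TMM, robust quasi-likelihood F-tests, no covariate, and Benjamini-Hochberg adjustment over 13092 genes. SEs of log2 fold changes come from the F statistic. CPM are per 1e6 of the TMM-scaled total. The procedure was tested on simulated data. Of planted log2 changes, 53.1% were recovered at a size of 0.25 and 82% at 0.5. In the simulation 185 genes were called, against 5175 in these data, so its setting differed. Pairs of libraries within a group differed by more than sampling noise and were kept separate. Alternatives were RLE, upper-quartile and unscaled totals, no filter or 1 CPM in 3 libraries, DESeq2 1.42.0, limma-voom 3.58.1, no robust estimation, a replicate block, a threshold of 0.01, thymocyte markers removed, and each library left out.

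Named by rule were all 10 members and all tested genes of the lists of ligands with receptors and of binding protein cleavage. Up to 4 called genes of each other list were named by smallest adjusted p, and 3 genes by likeness to each of 2 members. For likeness, 0.1 CPM was added before the logarithm. Irs2, Ghr, Pik3ca, Pik3cd, Foxo1, Foxo4, Wisp1, Wisp2, Nov and marker genes were also named, chosen after their values were seen. The members and lists were chosen with earlier results of these data known. Of the genes this rule takes, 1 is not reported here.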

Additional observations from a re-analysis of the deposited data

How the results depend on the processing

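Igf1, Igfbp3, Igfbp4, Igfbp5 and Igfbp7 kept their direction and their call in all 17 alternatives, and Igf1r and Irs1 stayed without a call in all 17, ranging from 0.00051 to 0.10 and from -0.16 to -0.067 with a library left out. Igfbp3 ranged from 0.78 to 0.98 and Igfbp5 from -0.73 to -0.61 on the log2 scale. Pappa passed with no filter (-0.28), by DESeq2 (-0.28), by limma-voom (-0.30), without robust estimation (-0.29) and with the replicate block (-0.29), and ranged from -0.40 to -0.23 with a library left out. Igfbp6 passed with no filter (-0.19) and with the replicate block (-0.19), and ranged from -0.28 to -0.11 with a library left out. Igfbp2 ranged from -0.11 to -0.0074 with a library left out, and passed without control replicate 3. The cause was not tested. The members called lower numbered 4 to 7 with a library left out, and 1 member was called higher in all 17. Same-numbered libraries deviated together only weakly (correlations of 0.101, 0.022 and 0.128), with 1 of 3 under 0.1, so the numbers were not taken as pairs. That 5 of 6 libraries correlated best with their own number is a hint of pairing from the data. The block called 5848 genes in place of 5175, and 2 growth hormone genes higher in place of 1. The summed binding protein level in fed over control libraries was 0.822, 0.840 with unscaled totals and 0.825 with the longest transcript. Few reads limit Igfbp3, with 124 in its lowest library.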
